A study of Homo sapiens with 4 samples.

Results

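The 35 genes described here encode subunits of the 20S and 19S particles of the proteasome and of its PA28 activator, chosen by symbol with the inducible subunits PSMB8 and PSMB9 left out. They were measured by 39 probe sets and stand among 17185 named genes measured in all. PSMB10 was also in the list although it is itself an inducible subunit, and PSME1 and PSME2 are known as interferon-inducible, so the list is not purely constitutive. The cells were KYSE410, a long-established human line grown from a squamous carcinoma of the oesophagus. They were kept for 24 h with 1 of 3 inflammatory stimuli, namely the cytokines TNFα (tumour necrosis factor) and IL1β (an interleukin) and the bacterial cell-wall product LPS (lipopolysaccharide), or with phosphate-buffered saline (PBS) as control. The labels used here name no doses. One array was hybridised for each of the 4 conditions, so there is no replicate error and no test, and every difference below is a difference between 2 arrays.

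The proteasome degrades proteins tagged with ubiquitin. Its 20S core is a stack of rings: the outer α rings gate the channel, and the inner β rings hold the proteolytic sites. The 19S particle caps the core; its base is a ring of ATPases that unfold the substrate, and its lid removes the ubiquitin chain. PA28 is an alternative cap. Interferon-γ and other inflammatory signals are known to replace the 3 catalytic β subunits by PSMB8, PSMB9 and PSMB10, which gives the immunoproteasome, and to raise PSME1 and PSME2. The transcription factor NFE2L1 (NRF1) is known to raise the standard subunits together when proteasome activity is short.

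The letters of 2 binding motifs were looked for in the promoters of these genes, one bound by interferon-responsive factors and one by the NFE2L1 family. Both motifs were chosen with the expression values known. RefSeq promoters (GRCh38.p14, 250 bases before to 50 after the start) were at hand for 30 of the 35 genes, in 36 windows. The core of the interferon-stimulated response element was written as GAAANNGAAA and searched on both strands, and 5 genes held it: PSMA4, PSMB4, PSMB10, PSME1 and PSME2. That is 13.9% of the 36 windows, against 3.57% of all 35116 promoters. All windows below are 30 bases, read 5′ to 3′ on the gene's own strand, with the match in capitals (TTTCNNTTTC where it lies on the opposite strand). PSMB8, PSMB9 and TAP1, which are not among the 35 genes, were searched too. PSMB8 and TAP1 held the match and PSMB9 did not, and PSMB8 is shown for comparison.
PSMB10, chr16:67936852-67936881, minus strand: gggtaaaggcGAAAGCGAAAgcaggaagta
PSME2, chr14:24146619-24146648, minus strand: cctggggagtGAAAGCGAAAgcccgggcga
PSME1, chr14:24136189-24136218, plus strand: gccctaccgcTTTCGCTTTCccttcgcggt
PSMB4, chr1:151399495-151399524, plus strand: tcgtctacagGAAAAAGAAAgaaatgacac
PSMA4, chr15:78540155-78540184, plus strand: atagtgaagaGAAAATGAAAggagagcgcc
PSMB8, chr6:32844032-32844061, minus strand: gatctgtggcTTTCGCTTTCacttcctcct
The match began 21 bases upstream of the start in PSMB10, 28 in PSME2, 68 in PSMB4 and 240 in PSMA4, and 5 bases downstream of it in PSME1. On the LPS array PSMB10, PSME1, PSME2 and PSMB4 had log2 differences from PBS of 0.50, 0.50, 0.89 and 0.40, while PSMA4 had -0.30. Of the 34 genes bright enough to compare, 21 lay above PBS with LPS and 13 below, and PSMB3, without this match, had 0.64. In the order PSMB10, PSME1, PSME2, PSMB4 and PSMA4, the differences with TNFα were -0.02, 0.02, 0.06, 0.42 and -0.43. With IL1β they were -0.30, -0.66, 0.28, 0.55 and -0.44. A link between match and level was not tested.

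The core of the antioxidant response element, which NFE2L1 and NFE2L2 bind, was written as TGACNNNGC and searched in the same way. It was in 9 of the 36 windows (25%), those of PSMA4, PSMB3, PSMC4, PSMC5, PSMD1, PSMD3, PSMD12, PSME1 and PSME2, against 13.3% of all promoters. The windows of PSMB3 and PSMD3 are shown because these genes differed at least 2-fold between the LPS and TNFα arrays, in opposite directions, and that of PSMA4 as a member of the α ring. The PSMA4 match here lies in the promoter of a different start from the one that held its GAAANNGAAA match. PSMD3 held a second match on the opposite strand, 33 bases past its start.
PSMB3, chr17:38752626-38752655, plus strand: cgcctccgtttTGACTTTGCaaccaaacta
PSMD3, chr17:39980759-39980788, plus strand: ttcccctttgtTGACTCGGCcatcggcctg
PSMA4, chr15:78540649-78540678, plus strand: cgtgggcacgaTGACTCTGCaccgcctcct
PSME3 held neither set of letters. A match is a description of the sequence and not evidence of binding.

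Intensities are RMA values on a linear scale (RMA combines the probes of a set after background correction and scaling between arrays), and differences are given on the log2 scale. Levels of different genes are not set against each other, because their probes differ. The words higher and lower without a fold stand for a 2-fold or larger gap whose brighter array was at a floor of 8.02 on the log2 scale, the median over all genes. Of the 35 genes 34 reached the floor on all 4 arrays. The exception was the lid subunit PSMD12, with 115 (PBS), 159 (TNFα), 53 (IL1β) and 74.3 (LPS). Its IL1β and LPS values lay under 2 times the array's random-sequence control, at 56.1 and 56.4, and its differences are not read here.

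The levels of most of the 34 genes differed less than 2-fold over the 4 arrays. The gap between a gene's highest and lowest array had a median of 0.50 on the log2 scale, or 1.42-fold, against 0.69 (1.61-fold) for all 8593 genes with a mean at the floor. Brighter genes varied less in these data, and over the 4207 genes whose mean lay in the span of the 34 the median gap was 0.62. The gap was under 2-fold for 30 of the 34 genes (88.2%), 82.3% of genes in that span and 74.8% of all genes at the floor. Other large complexes gave similar medians, 0.53 for 40 cytosolic ribosomal proteins and 0.51 for 8 subunits of the CCT chaperonin. How far these medians differ by more than array error was not tested.

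**Figure D1:**
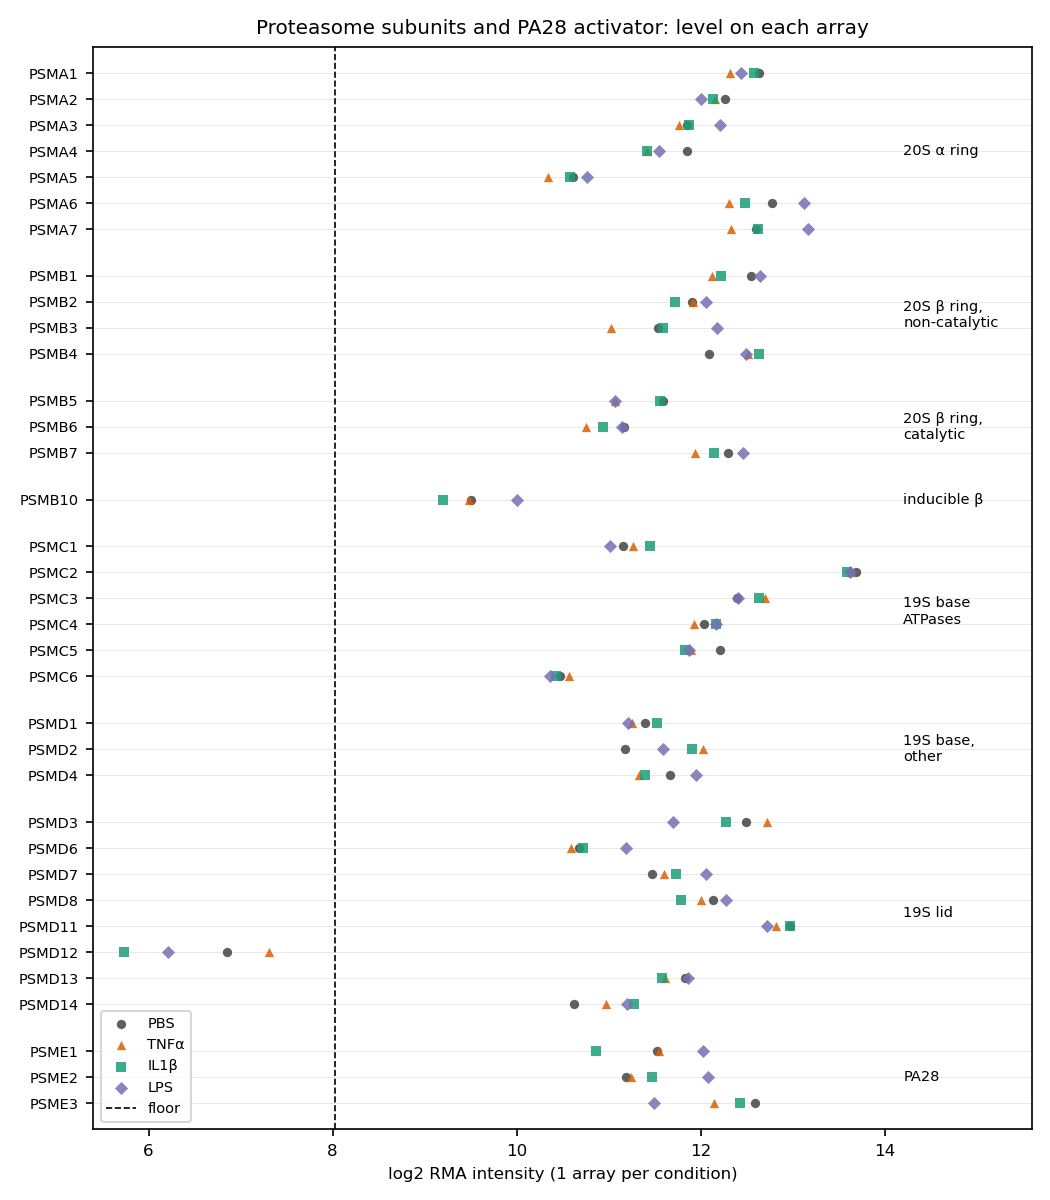
Log2 RMA intensity (x axis) of the 35 genes (rows, grouped by place in the complex) on the 4 arrays, 1 marker per array, with the floor of 8.02 as a dashed line. The 4 markers of most genes lie close together, and PSMD12 is the only gene left of the floor.

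**Figure D2:**
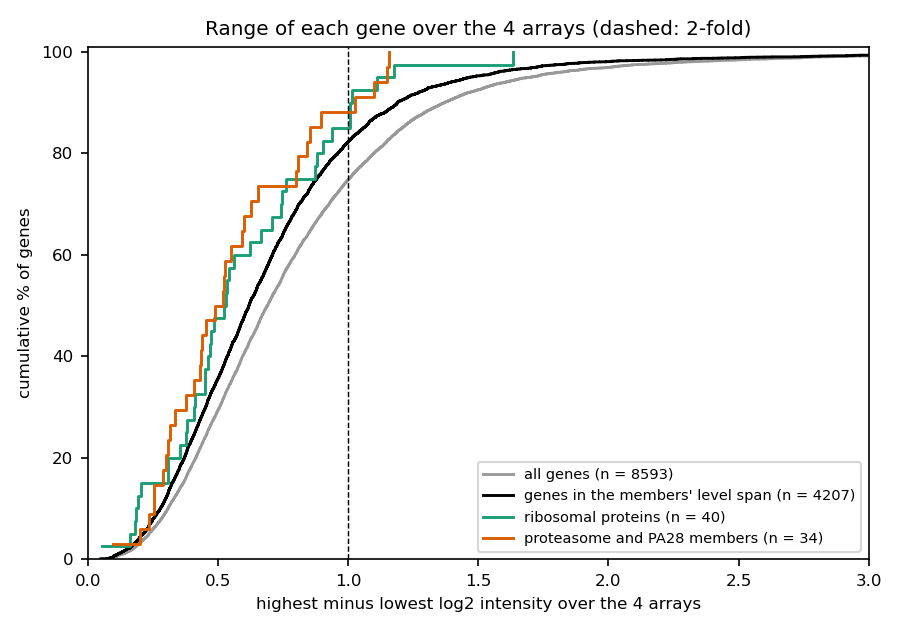
Cumulative percentage of genes (y axis) by the gap between their highest and lowest log2 intensity over the 4 arrays (x axis, shown up to 3), for genes with a mean at the floor. The curve of the 34 proteasome and PA28 genes lies to the left of that of all genes at the dashed 2-fold line, with 88.2% against 74.8% of genes under it.

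TNFα was compared with PBS first. None of the 34 genes was at least 2-fold higher or lower, where 3.37% of all genes at the floor were higher and 3.4% lower, as were 61 and 35 of the 4207 genes in the same span of levels. The median difference of the 34 was -0.12, against -0.07 for all genes. The 20S core had 13 of 15 differences below 0 and a median of -0.31, where 5312 of 9419 genes in all lay below 0. A list of 9 proteasome partners held ubiquitin receptors, shuttles and deubiquitinases, and also UBE3C and TXNL1, which are none of these. Of these 9 partners 8 lay below 0, with a median of -0.35. Of 40 cytosolic ribosomal proteins 23 did, with a median of -0.03, and of 8 CCT chaperonin subunits 4 did, with 0.01. The 19S particle had 9 of 16 below 0 and a median of -0.07. With the arrays re-centred by loess the 20S median was -0.23 with 12 of 15 below 0, so the direction held, but each of these differences was under 1.5-fold.

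All 7 α ring genes had lower values with TNFα than with PBS, by between 0.09 and 0.47 on the log2 scale. The α subunits have no proteolytic site, and their tails close the pore of the core. PSMA6 had intensities of 7024 (PBS), 5087 (TNFα), 5734 (IL1β) and 8891 (LPS). PSMA7 had 6197 (PBS), 5139 (TNFα), 6294 (IL1β) and 9208 (LPS). In both genes the TNFα array was the lowest and the LPS array the highest. PSMA4 had 3686 (PBS), 2743 (TNFα), 2724 (IL1β) and 2994 (LPS), and here PBS was the highest. PSMA1, PSMA2, PSMA3 and PSMA5 had log2 differences from PBS between -0.31 and -0.09 with TNFα.

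The 3 standard catalytic subunits also had their PBS values above the TNFα values. PSMB5, which carries the chymotrypsin-like site, had intensities of 3075 (PBS), 2146 (TNFα), 3016 (IL1β) and 2142 (LPS). The TNFα and LPS arrays were nearly equal for this gene and lay 1.43-fold and 1.44-fold under PBS. PSMB6, with the caspase-like site, had 2296 (PBS), 1733 (TNFα), 1962 (IL1β) and 2271 (LPS). PSMB7, with the trypsin-like site, had 5020 (PBS), 3918 (TNFα), 4519 (IL1β) and 5641 (LPS). Log2 differences from PBS with TNFα were -0.52 for PSMB5, -0.41 for PSMB6 and -0.36 for PSMB7. With LPS they were -0.52, -0.02 and 0.17, so the 3 sites did not move together on that array.

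Among the non-catalytic β subunits, which complete the inner rings, PSMB3 varied most. Its intensities were 2970 (PBS), 2084 (TNFα), 3074 (IL1β) and 4616 (LPS). TNFα was the lowest array and LPS the highest. PSMB4 had 4349 (PBS), 5834 (TNFα), 6373 (IL1β) and 5746 (LPS), with PBS the lowest of the 4 arrays. PSMB1 had log2 differences from PBS of -0.42, -0.32 and 0.10 with TNFα, IL1β and LPS. PSMB2 had 0.01, -0.18 and 0.15 in the same order.

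PSMD2, a scaffold of the 19S base that receives ubiquitin-like domains, showed the largest difference of the 34 genes with TNFα. Its intensities were 2311 (PBS), 4180 (TNFα), 3825 (IL1β) and 3073 (LPS), with PBS the lowest array. TNFα was 1.81-fold and IL1β 1.65-fold above PBS, both short of the 2-fold rule. All 3 stimulated arrays lay above PBS for 6 of the 34 genes, PSMB4, PSMC3, PSMD2, PSMD7, PSMD14 and PSME2, and in each the 3 differences share that single PBS value. That is 17.6%, against 21.0% of all genes at the floor for which PBS was the lowest array.

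IL1β was compared with PBS next. Again none of the 34 genes was at least 2-fold higher or lower, against 3.13% and 3.57% of all genes at the floor. Their median difference was -0.05, the same to 2 decimals as that of all genes. With loess centring it was 0.01, so no direction is read. In the 20S core 11 of 15 differences were below 0, with a median of -0.12, beside 5218 of 9427 genes in all. After loess centring it was 9 of 15, with a median of -0.07. PSMD14, the metalloprotease of the lid that cuts ubiquitin chains off, had 1577 (PBS), 2012 (TNFα), 2480 (IL1β) and 2357 (LPS). Its lowest value was the PBS one, and IL1β was 1.57-fold above it.

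The 19S ATPases were the steadiest part of the complex. These 6 subunits form the ring that unfolds substrates and threads them into the core. None differed from PBS by more than 0.38 on the log2 scale with any stimulus. PSMC2 had 13204 (PBS), 12747 (TNFα), 12349 (IL1β) and 12632 (LPS), a gap of 0.10 between its highest and lowest array. PSMC1 had the widest gap of the 6, 0.43, with 2275 (PBS), 2461 (TNFα), 2790 (IL1β) and 2071 (LPS). Its IL1β value was the highest and its LPS value the lowest. The median gap of the 6 ATPases was 0.27, against 0.52 for the 15 genes of the 20S core. The difference between these groups was not tested.

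**Figure D3:**
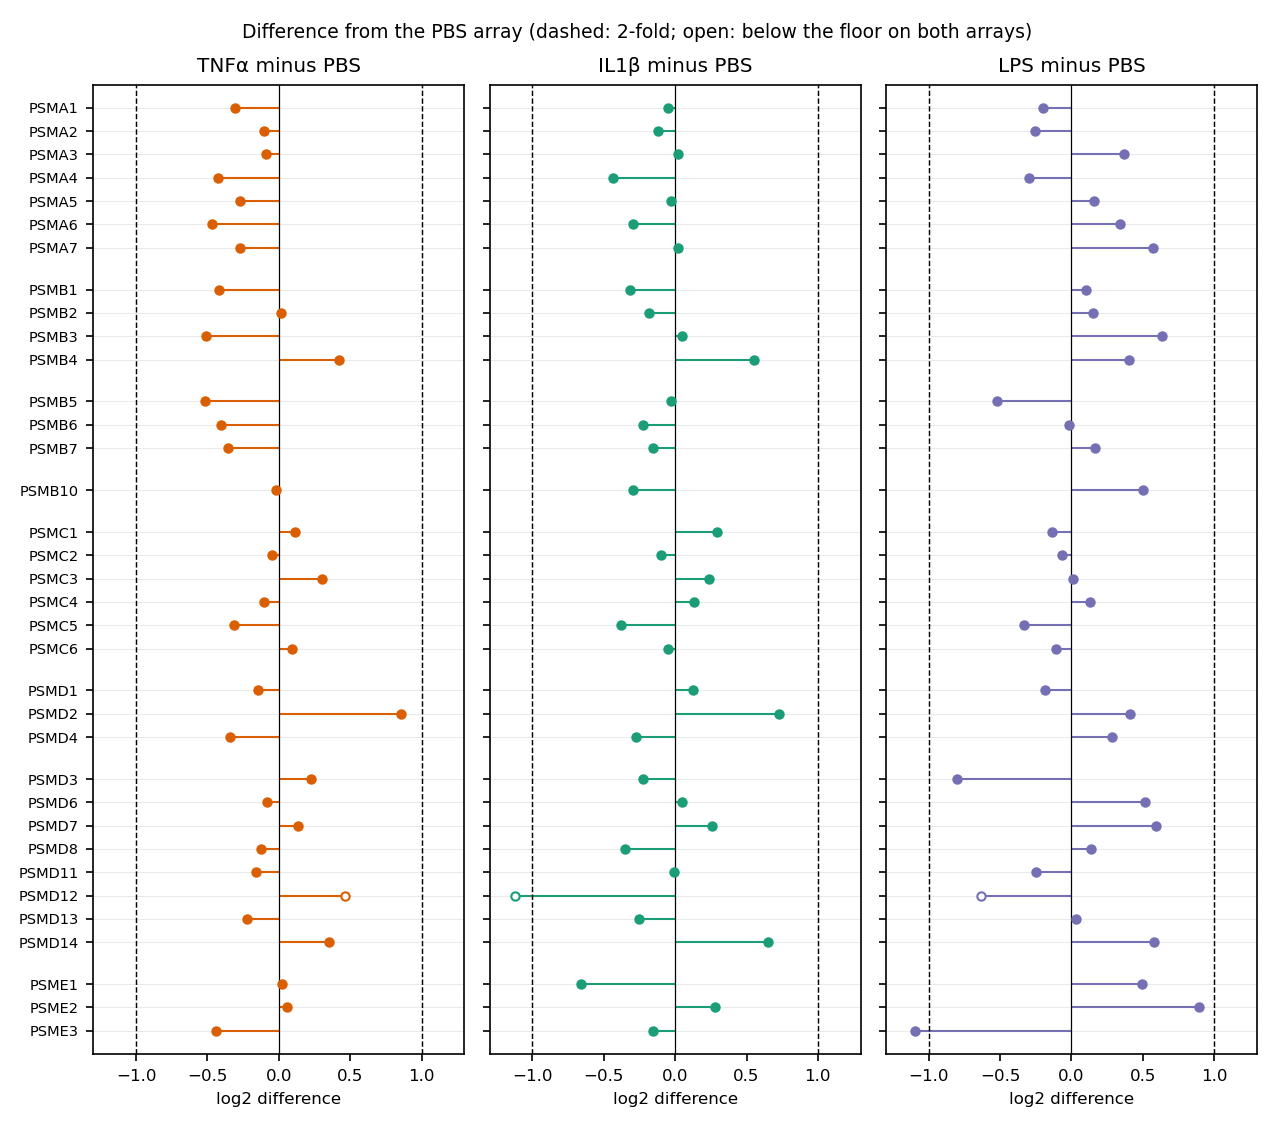
Log2 difference from the PBS array (x axis) of the 35 genes (rows) with TNFα, IL1β and LPS, 1 array each; dashed lines mark 2-fold and open circles a gene under the floor on both arrays. Among filled circles only PSME3 with LPS passes a dashed line, at -1.10.

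For LPS against PBS, 1 of the 34 genes passed the size rule. PSME3, which forms the nuclear PA28γ cap, was 2.14-fold lower, and none of the 34 was higher. Of all genes at the floor 7.42% were lower and 8.83% higher. A single lower gene of 34 is 2.94%, which is under that background share and not a result about the group. The median difference was 0.13, against 0.05 for all genes. It was 0.16 for the 20S core, with 10 of 15 above 0, and 0.02 for the 19S particle, with 9 of 16 above 0, beside 5114 of 9675 genes in all. Loess centring and repeated quantile normalization turned the 19S median to -0.03 and -0.01, so that group has no direction here.

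The PA28 genes went separate ways on the LPS array. PSME1 and PSME2 encode the α and β subunits of the cytoplasmic cap, which is linked to antigen presentation, whereas PSME3 builds a cap of its own. PSME3 had intensities of 6152 (PBS), 4534 (TNFα), 5513 (IL1β) and 2874 (LPS), with LPS the lowest array by a wide step and PBS the highest. PSME2 had 2330 (PBS), 2424 (TNFα), 2830 (IL1β) and 4331 (LPS), with LPS the highest array. The LPS value of PSME2 was 1.86-fold above PBS, just short of the 2-fold rule. PSME1 had 2953 (PBS), 3001 (TNFα), 1868 (IL1β) and 4167 (LPS), with LPS the highest array and IL1β the lowest. A second probe set of PSME1 had 2004 (PBS), 1828 (TNFα), 2237 (IL1β) and 2851 (LPS). Both sets were high with LPS, by 0.50 and 0.51 on the log2 scale against PBS, but the low IL1β value of the first (-0.66) was not seen in the second (0.16).

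PSMB10, the inducible counterpart of PSMB7, had intensities of 725 (PBS), 715 (TNFα), 589 (IL1β) and 1026 (LPS). LPS was the highest array and 1.42-fold above PBS, while TNFα was close to PBS and IL1β lay 1.23-fold under it. The 2 inducible subunits outside the list were set beside it. PSMB9, the counterpart of PSMB6, had 706 (PBS), 768 (TNFα), 447 (IL1β) and 1328 (LPS). As for PSMB10, LPS was the highest array and IL1β the lowest, and its LPS value was 1.88-fold above PBS. PSMB8, the counterpart of PSMB5, was measured by 2 probe sets that went against each other. The brighter one had 197 (PBS), 509 (TNFα), 997 (IL1β) and 413 (LPS). The other had 466 (PBS), 155 (TNFα), 122 (IL1β) and 864 (LPS). With TNFα and IL1β the first was at least 2-fold above PBS and the second at least 2-fold below. The sign of PSMB8 with these cytokines therefore depends on the probe set, and only with LPS did both lie above PBS, by 1.07 and 0.89.

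Within the lid, which strips ubiquitin from substrates, LPS values lay on both sides of PBS. PSMD3, a scaffold subunit, had 5781 (PBS), 6747 (TNFα), 4940 (IL1β) and 3314 (LPS). The LPS array was the lowest and 1.74-fold under PBS. PSMD7, the partner of PSMD14, had 2828 (PBS), 3105 (TNFα), 3390 (IL1β) and 4264 (LPS), with LPS the highest array. PSMD6 had 1634 (PBS), 1543 (TNFα), 1688 (IL1β) and 2338 (LPS), also highest with LPS. PSMD8, PSMD11 and PSMD13 had log2 differences from PBS between -0.25 and 0.14 with LPS. In the base, PSMD4, a ubiquitin receptor, had 3255 (PBS), 2564 (TNFα), 2688 (IL1β) and 3961 (LPS), and PSMD1, the other large scaffold, had a gap of 0.32 over the 4 arrays.

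The stimuli were then compared directly, without the PBS array. TNFα and IL1β gave no gene of the 34 at least 2-fold higher or lower, against 1.87% and 1.74% of all genes at the floor. Their median difference, TNFα minus IL1β, was -0.13, and all genes had a median of -0.00. The 20S core had 11 of 15 values below 0, beside 4684 of 9270 genes in all. Its median was -0.17, which was -0.15 after loess centring and -0.17 after repeated quantile normalization. Of the 9 proteasome partners 7 lay below 0, with a median of -0.18. Of 7 further proteasome subunits and regulators at the floor 7 did, with -0.14, and of 39 ribosomal proteins 19 did, with 0.02.

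LPS minus TNFα gave 1 higher and 1 lower gene of the 34. PSMB3 was 2.22-fold higher with LPS and PSMD3 2.04-fold lower. Among all genes 9.93% were higher and 7.09% lower, so 1 of 34 each way lies under the background. The 20S core had 12 of 15 differences above 0, beside 5434 of 9655 genes in all, and a median of 0.43, against 0.11 for all genes. Of 40 cytosolic ribosomal proteins 34 lay above 0, with a median of 0.32. Of 5 proteasome assembly chaperones 5 did, with a median of 0.62, and of 8 CCT chaperonin subunits 4 did, with 0.01. The 19S particle had 7 of 16 above 0 and a median of -0.02, but its parts differed. Its lid had 5 of 7 above 0 with a median of 0.25. The base ATPases had 1 of 6 above 0 with -0.11, and the other base subunits 1 of 3 with -0.04. PSMA6 and PSMA7 were 1.75-fold and 1.79-fold above TNFα. With loess centring the 20S median was 0.30 with 10 of 15 above 0, and the 19S median -0.13. The gap between core and cap was not tested, and it rests on single LPS and TNFα arrays.

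LPS minus IL1β gave 1 higher gene, PSME1 (2.23-fold), and none lower, against 10.5% and 7.45% of all genes. Its second probe set had a difference of 0.35, against 1.16 for the first, so the call was not repeated. PSME3 came next to the rule on the lower side, at -0.94.

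Set against each gene's own mean over the 4 arrays, the 20S core had median deviations of 0.09 (PBS), -0.24 (TNFα), -0.06 (IL1β) and 0.19 (LPS). The TNFα array was the lowest of the 4 for 9 of the 15 core genes and the highest for none. Among all genes at the floor it was the lowest for 23.6% and the highest for 17.3%. The LPS array was the highest for 9 of the 15, against 38.8% of all genes. It was also the highest for 29 of 40 ribosomal protein genes, but for 2 of 8 CCT chaperonin subunits. The 19S particle had medians between -0.05 and 0.03 on all 4 arrays. On the LPS array its lid alone had a median of 0.18, near that of the core, while its base ATPases had -0.09.

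**Figure D4:**
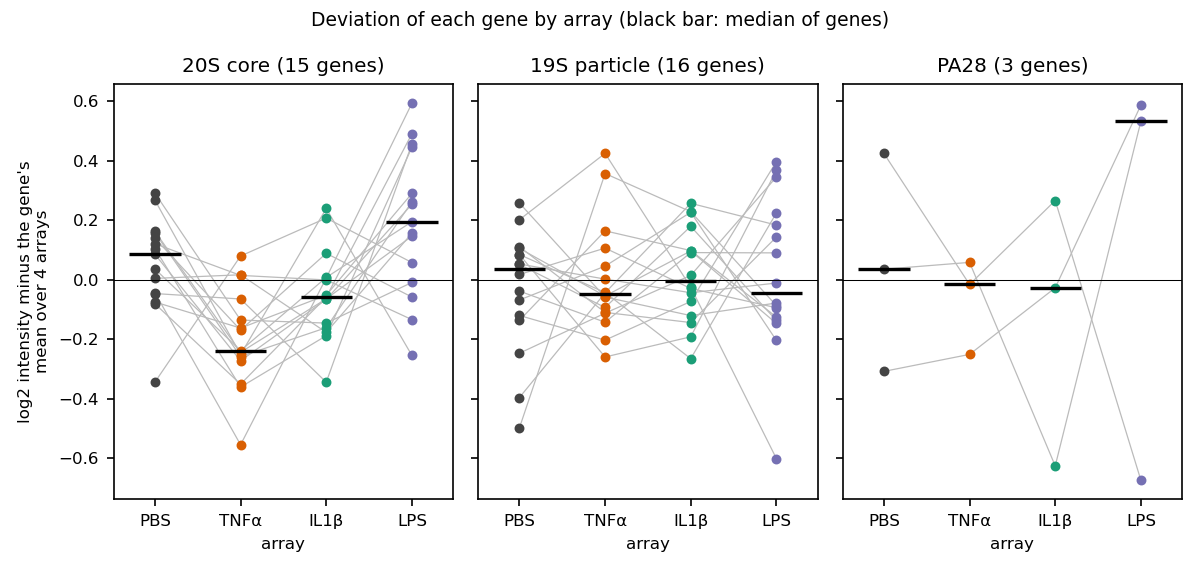
Log2 intensity minus the gene's mean over the 4 arrays (y axis) for the 20S core, the 19S particle and PA28 on each array (x axis); points are genes, grey lines join a gene and black bars are medians. In the 20S panel the median lies at -0.24 with TNFα and stands at 0.19 with LPS, while the 19S medians stay near 0 and the PA28 genes part with LPS.

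Of the 35 genes 4 had a second probe set, the nearest to a repeated measurement in this design. The 2 sets of a gene were matched to different transcripts and read on the same arrays. They therefore repeat neither the sample nor the hybridisation, and what part of their disagreement lies in the transcripts was not tested. For PSMA1, PSMA3, PSMD13 and PSME1 the 2 sets differed in their TNFα minus PBS values by a median of 0.18, in IL1β minus PBS by 0.19 and in LPS minus PBS by 0.14. The widest disagreements were 0.25, 0.82 and 0.58. Over the 622 genes with 2 sets at the floor the medians were 0.33, 0.34 and 0.38. PSMA1 with LPS had -0.20 in one set and 0.38 in the other. PSMA3 had 0.36 and 0.26.

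Proteasome assembly chaperones help to build the proteasome and are not part of the finished particle. All 5 had their highest value on the LPS array, against 38.8% of all genes at the floor and 72.5% of the ribosomal protein genes. PSMG2, which assembles the α ring, was 2.24-fold higher than with PBS, the only 1 of 5 measured to pass the rule, where 8.83% of all genes were higher. Its call was lost with the floor at 9.56. The chaperones' median difference was 0.47. POMP, which guides β ring assembly and is known to favour the immunoproteasome, had 1380 (PBS), 909 (TNFα), 734 (IL1β) and 2200 (LPS). LPS was 2.42-fold higher than TNFα and 3-fold higher than IL1β. In each of these comparisons 2 of the 5 chaperones were higher with LPS, against 9.93% and 10.5% of all genes. Among 7 further proteasome subunits and regulators at the floor 2 were higher with LPS, against the same 8.83%. PSMD9, a chaperone of the ATPase ring, had 634 (PBS), 673 (TNFα), 741 (IL1β) and 1686 (LPS), and SEM1, a small lid subunit, was 2-fold higher. Log2 differences of PSMD9 from PBS were 0.09 with TNFα and 0.22 with IL1β. SEM1 stood at the threshold and fell short of it with loess centring (0.94), repeated quantile normalization (0.97) and an offset of 50.9 added before log2 (0.98).

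Regulators of proteasome gene transcription did not follow 1 direction. NFE2L1 had 6556 (PBS), 7176 (TNFα), 7330 (IL1β) and 6172 (LPS), a gap of 0.25 over the 4 arrays. NFE2L2 (NRF2), the related factor of the oxidative stress response, had 1416 (PBS), 811 (TNFα), 1062 (IL1β) and 2113 (LPS), with LPS highest and TNFα lowest. LPS was 2.61-fold higher than TNFα, the only 1 of 7 genes of this list called in that comparison, where 9.93% of all genes were higher. MAFF, a small partner of both factors, was 2.03-fold higher with IL1β than with PBS, and it was the only 1 of 6 genes at the floor to pass the rule with that cytokine, against 3.13% of all genes. The call was lost with the offset of 50.9 (0.90) and with the floor at 9.56.

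In class I peptide loading, which presents the peptides that proteasomes make, TAP1 stood out among the genes listed. TAP1, the peptide transporter encoded next to PSMB9, had 666 (PBS), 2596 (TNFα), 2877 (IL1β) and 5369 (LPS). It was 3.9-fold, 4.32-fold and 8.06-fold higher with the 3 stimuli, and these differences share the single PBS value of 1 probe set. With TNFα 1 of 8 genes of this list at the floor was higher, with IL1β 1 of 8 and with LPS 2 of 9. Of all genes at the floor 3.37%, 3.13% and 8.83% were higher. NLRC5, an activator of class I genes, was 2.53-fold higher with LPS, at 172 (PBS), 255 (TNFα), 149 (IL1β) and 433 (LPS). It reached the floor on the LPS array alone, and its call was lost with the floor at 9.56. The other genes of that list at the floor, 7 with each stimulus, did not pass the rule against PBS in the probe set used. Other sets of 2 of them went the opposite way. With LPS TAPBP had 0.30 in the set used and -1.14 and -0.85 in its others, the first of these past 2-fold. With TNFα TAP2 had 0.61 in the set used and -0.97 in the other.

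Marker genes were checked on the same arrays. All 10 epithelial markers, keratins among them and not all of them particular to squamous epithelium, were at the floor with PBS, IL1β and LPS, and 9 of 10 with TNFα. Of these 10, KRT14 and TP63 were higher with LPS, by 1.25 and 1.48 on the log2 scale, where 8.83% of all genes at the floor were higher. CDH1 (E-cadherin) was lower with all 3 stimuli, with differences of -2.38, -2.08 and -2.09 for TNFα, IL1β and LPS. In the same order 3.4%, 3.57% and 7.42% of all genes at the floor were lower. Markers of other cells also differed between the arrays, and not only on the LPS array. The summed intensity of 6 cardiac muscle genes was 38051 (PBS), 50330 (TNFα), 58160 (IL1β) and 14236 (LPS). On the LPS array ACTC1 made up 12945 of that sum, while MYH6 and MYH7 were near background. Differences of MYH6, MYH7, TNNT2 and TNNI3 from PBS with LPS were -6.86, -5.51, -3.47 and -3.62 on the log2 scale. That of ACTC1 was -0.47, while MYL7 went the other way, with 0.36. The sum of 12 leukocyte genes in the same order was 9384, 11868, 14928 and 1417, with 3, 6, 7 and 1 of them at the floor. LYZ alone gave 6917 (PBS), 5600 (TNFα), 10390 (IL1β) and 209 (LPS). PTPRC was near background with PBS and LPS and at 1295 and 1046 with TNFα and IL1β. Fibroblast genes summed to between 818 and 1501 and endothelial genes to between 366 and 855, the lower ends on the LPS and TNFα arrays. The part of such RNA in the differences above was not tested. RNA of other cells and RNA of the line itself cannot be told apart in a bulk sample.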

How the data were processed

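Total RNA of KYSE410 cells was copied to cDNA, labelled with Cy3 and hybridised to one-colour NimbleGen arrays, 1 per condition, per the labels' protocols. The deposited values are RMA intensities on a linear scale, per the file headers and names; their software is not named in the labels. The series value table was identical to the per-array values for all 45033 probe sets. Transcript accessions were matched without versions to RefSeq (GRCh38.p14), which named 18866 probe sets (41.9%) and 17185 genes. A gene took its probe set of highest mean log2 intensity.

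The members and all lists were chosen with earlier results of these data known. A gene was called at 2-fold or more with its brighter array at the floor (8.02 on the log2 scale, 260.5 on the linear scale). With 1 array per group no test was made, and precision is limited by that number. Scaling between arrays makes every difference relative to the bulk of genes. All 35 genes could be named. Related genes were named at 2-fold from PBS, at most 4 per list, besides PSMB8, PSMB9, NFE2L1, POMP and TAP1. NFE2L2, UBE3C, TXNL1, the ubiquitin genes and the second probe sets were named after their values were seen. The calling step was first tested on simulated data. Alternatives were loess centring, the mean of a gene's probe sets, a floor of 9.56 (75th percentile) or none, repeated quantile normalization, the series table, an offset of 50.9 before log2, thresholds of 1.5-fold and 3-fold, and shorter lists. The dimmest probe set of a gene, the span of levels and the motif search were added after seeing the data. The work was done in Python 3.11.15 with pandas 2.3.3, numpy 2.4.6 and, for loess, statsmodels 0.14.6; matplotlib 3.10.9 drew the plots.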

Additional observations from a re-analysis of the deposited data

How the results depend on the processing

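With 1 array per condition nothing here has an error, and none of the counts of genes past the rule exceeded 6 of 34. No paired analysis was possible because each condition has 1 array. Over the alternatives 98 medians moved by less than 0.1 on the log2 scale. The other 2 were under loess centring, with a median difference of 0.095 for LPS minus TNFα and 0.036 for LPS minus IL1β. The limit of 0.1 is wide beside the medians. With loess that of TNFα minus PBS went from -0.12 to -0.04 and that of IL1β minus PBS from -0.05 to 0.01, within the limit. Of the counts of called genes 118 kept within 1.5 times and 26 did not. Most counts were 0 to begin with, and the series table equals the values used and could move nothing, so these tallies say little about stability. At 1.5-fold the higher and lower genes numbered 1 and 0 for TNFα minus PBS, 2 and 1 for IL1β minus PBS, 3 and 2 for LPS minus PBS, 1 and 0 for TNFα minus IL1β, 6 and 2 for LPS minus TNFα, and 5 and 1 for LPS minus IL1β. In either direction that is 2.94%, 8.82%, 14.7%, 2.94%, 23.5% and 17.6% of the 34, against 21.2%, 21.4%, 38.6%, 12.8%, 40.3% and 42.0% of all genes at the floor. At 3-fold there were 0 in every comparison. With no floor PSMD12 added 1 lower gene for IL1β minus PBS, 1 higher for TNFα minus IL1β and a second lower one for LPS minus TNFα, making 2. Loess centring and repeated quantile normalization each gave 1 lower gene for LPS minus IL1β. The higher gene of LPS minus IL1β was lost (0 left) with the mean of all probe sets, the dimmest probe set, or without PSMB10 and the PA28 genes. Without those genes, or without the member of largest difference, the lower count of LPS minus PBS was 0. Without that member the higher counts of LPS minus TNFα and LPS minus IL1β were also 0. PSMB8 reversed with the dimmest probe set, at -1.93 for IL1β minus PBS, -1.59 for TNFα minus PBS and 2.82 for LPS minus IL1β, and with the mean of its sets, at -0.11 for TNFα minus PBS and 0.78 for LPS minus IL1β. TAP2 reversed for LPS minus TNFα with its dimmest set, at 0.36. The cause of the shifts with scaling was not tested.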

Other observations

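Genes that act before the proteasome included 5 that differed at least 2-fold between LPS and PBS, where 8.83% of all genes were higher and 7.42% lower. VCP, the p97 segregase that pulls ubiquitinated proteins out of complexes and membranes, had an intensity of 16248 (PBS), 11472 (TNFα), 12367 (IL1β) and 7887 (LPS), and was 2.06-fold lower with LPS than with PBS. Its cofactor NSFL1C (p47) was 2.71-fold higher, with 173 (PBS), 111 (TNFα), 99.2 (IL1β) and 469 (LPS), and reached the floor with LPS alone. Its call was lost with the floor at 9.56. Of the 9 proteasome partners 2 were higher and 1 lower with LPS, 33.3% in all. The shuttle RAD23B was 2.12-fold higher. UBQLN2 was 2.52-fold higher, with 221 (PBS), 287 (TNFα), 207 (IL1β) and 557 (LPS), at the floor with TNFα and LPS only, and lost its call with the floor at 9.56. UBQLN1 was 2.19-fold lower in one probe set, with -0.25 in the other. None of these 9 passed the rule with TNFα or IL1β.

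Genes that supply or activate ubiquitin lay on both sides of PBS with LPS. UBB, which encodes a chain of ubiquitin units, had a log2 difference of -0.67, the activating enzyme UBA1 -0.70, and RPS27A, which encodes ubiquitin fused to a ribosomal protein, 0.49. None of these 3 genes passed the 2-fold rule.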
